A study of Mus musculus with 12 samples.

Results

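Bile acid synthesis and transport genes were the 32 genes named here for the liver's handling of bile acids, grouped by the step at which their products act, of 17871 genes measured in mouse liver. Of these 32, the gene table lists 31, and 30 had enough counts to be tested among 12896 genes. Slc51b, the beta subunit of the basolateral organic solute transporter, had 1 to 10 counts a library and was not tested, and Gpbar1, the membrane bile acid receptor gene, was not analysed here. The steps were hydroxylation of cholesterol (4 genes), modification of the ring and side chain (6), conjugation (2), regulation (6, of which 5 were tested), uptake from blood (4), export into the canaliculus (6) and export back to blood (4, of which 3 were tested).

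Poly(A) RNA was measured in 12 liver libraries of male mice, 3 for each of 4 groups. The labels give the strain as IRC mouse and the study's methods as ICR, an outbred stock, in which treatment began at 3 weeks of age. A0 mice received ddH2O by gavage for 5 weeks, and A10 mice received AOS (alginate oligosaccharides, short sugar chains made from the alginate of brown seaweed) at 10 mg/kg by gavage for 5 weeks. BA0 mice received a single injection of busulfan, an alkylating drug that kills dividing cells, at 40 mg/kg and then ddH2O, and BA10 mice received the same injection and then AOS at 10 mg/kg. No allele or transgene was involved, each group held 30 mice, and no source used here says which or how many livers went into each library. Although the labels name the tissue as cells, the hepatocyte gene Alb was at 56100 to 85600 CPM (counts scaled to library size with TMM factors) and the titles and protocol refer to liver. The comparisons ask whether busulfan alters these genes, whether AOS does so in treated mice, and whether AOS does so without busulfan.

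Bile acids are made from cholesterol in hepatocytes by a classic route, which Cyp7a1 opens, and an alternative route, in which Cyp27a1 and Cyp7b1 act first. Cyp8b1 adds the hydroxyl group that turns the product towards cholic acid, and the acids are joined to taurine or glycine before Abcb11 pumps them into bile. Bile acids that return from the gut are taken up by Slc10a1 and organic anion transporters, and they restrain their own synthesis through the nuclear receptor FXR (Nr1h4), its target SHP (Nr0b2) and the hepatic receptor pair Fgfr4 and Klb.

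RefSeq promoters (assembly GRCm38.p6, from 250 bases before to 50 after a gene's start) were found for 23 of the 32 members, 31 promoters in all. Those of Cyp8b1, Slco1b2 and Abcb11 are shown because these 3 genes passed the test against A0. The promoter table holds none for Abcc3 and Cyp7a1. Capitals mark matches on either strand to AGGTCA (the core letters of nuclear receptor sites), CAAGGNCA (a site of LRH-1, the product of Nr5a2), CAAAGTCCA (a site of HNF4) or GTTAAT (part of an HNF1 site). With T as its N, CAAGGNCA holds AGGTCA.
Cyp8b1: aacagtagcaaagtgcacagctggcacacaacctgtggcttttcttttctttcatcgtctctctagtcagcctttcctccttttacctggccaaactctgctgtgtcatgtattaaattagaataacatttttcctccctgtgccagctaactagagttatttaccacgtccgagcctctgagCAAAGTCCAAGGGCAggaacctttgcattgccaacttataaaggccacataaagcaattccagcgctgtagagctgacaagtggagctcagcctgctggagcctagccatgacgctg
Slco1b2: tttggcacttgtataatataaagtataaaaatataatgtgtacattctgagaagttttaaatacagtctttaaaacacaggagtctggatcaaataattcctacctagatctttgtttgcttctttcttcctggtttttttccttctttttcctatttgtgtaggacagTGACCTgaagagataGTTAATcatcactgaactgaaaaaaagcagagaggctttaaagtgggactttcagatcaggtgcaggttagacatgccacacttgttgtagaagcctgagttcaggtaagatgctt
Abcb11: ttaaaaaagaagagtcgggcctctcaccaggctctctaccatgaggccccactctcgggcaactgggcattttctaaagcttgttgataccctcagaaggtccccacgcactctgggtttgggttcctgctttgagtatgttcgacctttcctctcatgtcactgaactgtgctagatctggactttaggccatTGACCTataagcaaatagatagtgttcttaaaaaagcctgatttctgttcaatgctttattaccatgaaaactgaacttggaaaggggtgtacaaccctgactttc
The Cyp8b1 promoter (minus strand, chr9:121916256-121916555) has the HNF4 letters from 67 bases before the start and the LRH-1 letters from 60 bases before it, which overlap. The Slco1b2 promoter (plus strand, chr6:141629268-141629567) has AGGTCA on the opposite strand from 81 bases and the HNF1 letters from 66 bases before the start. The Abcb11 promoter (minus strand, chr2:69342567-69342866) has AGGTCA on the opposite strand from 56 bases before the start. Among all 32851 promoters of this length, AGGTCA was in 16.3%, CAAGGNCA in 6.71%, GTTAAT in 7.1% and CAAAGTCCA in 0.475%. Among the members, AGGTCA was in 11 of the 31 promoters (10 genes), CAAGGNCA and GTTAAT were in 3 each and CAAAGTCCA was in 1, that of Cyp8b1. These are matches of letters and not tested sites.

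Library totals were 16439485 to 18174565 counts. A0 replicates 1 and 2 stood apart from the other 10 libraries before any comparison. Each gene's log2 CPM in a library was taken as its deviation from the gene's mean over the 12 libraries. Gene length and GC content together accounted for 22.9% and 15% of the variance of these deviations in A0 replicates 1 and 2, against 0.3% to 6.4% elsewhere. The TMM factors of these 2 libraries were 0.851 and 0.879. For the genes called against A0, the result with these length and GC trends removed is given too. All 12 libraries entered 1 edgeR model (quasi-likelihood test), and a gene was called at a Benjamini-Hochberg adjusted p under 0.05 over all genes tested. The summed CPM of 5 sinusoidal endothelial markers was 84.2 to 89.3 in A0, 121 to 163 in A10, 130 to 164 in BA0 and 165 to 203 in BA10. That of 5 stellate cell markers was 115 to 178 in A0 and 175 to 283 in the other groups, that of 4 lung markers 0.401 to 1.03 and 6.32 to 9.17, and that of 14 genes with higher levels in female livers, the member Slco1a4 among them, 13.1 to 25.6 and 29.8 to 294. For 14 genes with higher levels in male livers, the member Cyp7b1 among them, it was 10900 to 16200 in A0 and 8600 to 9410 in A10. It was 6170 to 12500 in BA0, which overlaps A0, and 7890 to 9220 in BA10. The 7 cholangiocyte markers summed to 34 to 82.7 CPM with overlap of the groups, and the defining markers Krt19, Krt7 and Epcam reached at most 1.19, 0.638 and 1.27 CPM. The part of these other cell types, of the lung transcripts and of the sex-biased genes in the differences from A0 was not tested. In whole liver, fewer cells of a type and less RNA per cell cannot be told apart.

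The members' levels, compared between genes as RPKM (reads scaled to gene length and library size, the authors' unit), ran from 0.431 for Abcc4 to 1910 for Scp2 as means of the 12 libraries. The thiolase that shortens the side chain is among the products of Scp2, and the value is that of the whole gene. After it came the uptake carriers Slc10a1 (407) and Slco1b2 (295), then the enzymes Slc27a5 (230), Hsd3b7 (223), Cyp27a1 (202), Cyp7b1 (186) and Cyp8b1 (174). The canalicular bile salt pump Abcb11 was at 84.6 RPKM, and the rate-limiting enzyme Cyp7a1 at 37.3 RPKM. Among the regulators, Nr1h4 was at 46.5, Nr0b2 at 26.1, Fgfr4 at 13.4, Nr5a2 at 10.4 and Klb at 4.66 RPKM. Abcb1a and Abcc4, which export drugs and conjugates, were at 0.438 and 0.431 RPKM with 11 to 58 counts a library.

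How far libraries of 1 group differed depended strongly on the gene. The coefficient of variation of the CPM within groups had a median of 13.9% over the 30 members and 14.9% over all genes tested. It was 61.7% for Cyp7a1, at percentile 96.4 of the genes tested, 49.7% for Abcb1a, 42.2% for Cyp7b1 and 37.2% for Nr0b2. It was under 6% for Scp2 (4.37%), Hsd17b4 (4.45%), Abcb11 (5.52%) and Baat (5.55%). The pump and 3 genes of peroxisomal side chain shortening and conjugation thus varied least between libraries of a group. Cyp7a1, Cyp7b1 and SHP were among the members that varied most.

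**Figure D1:**
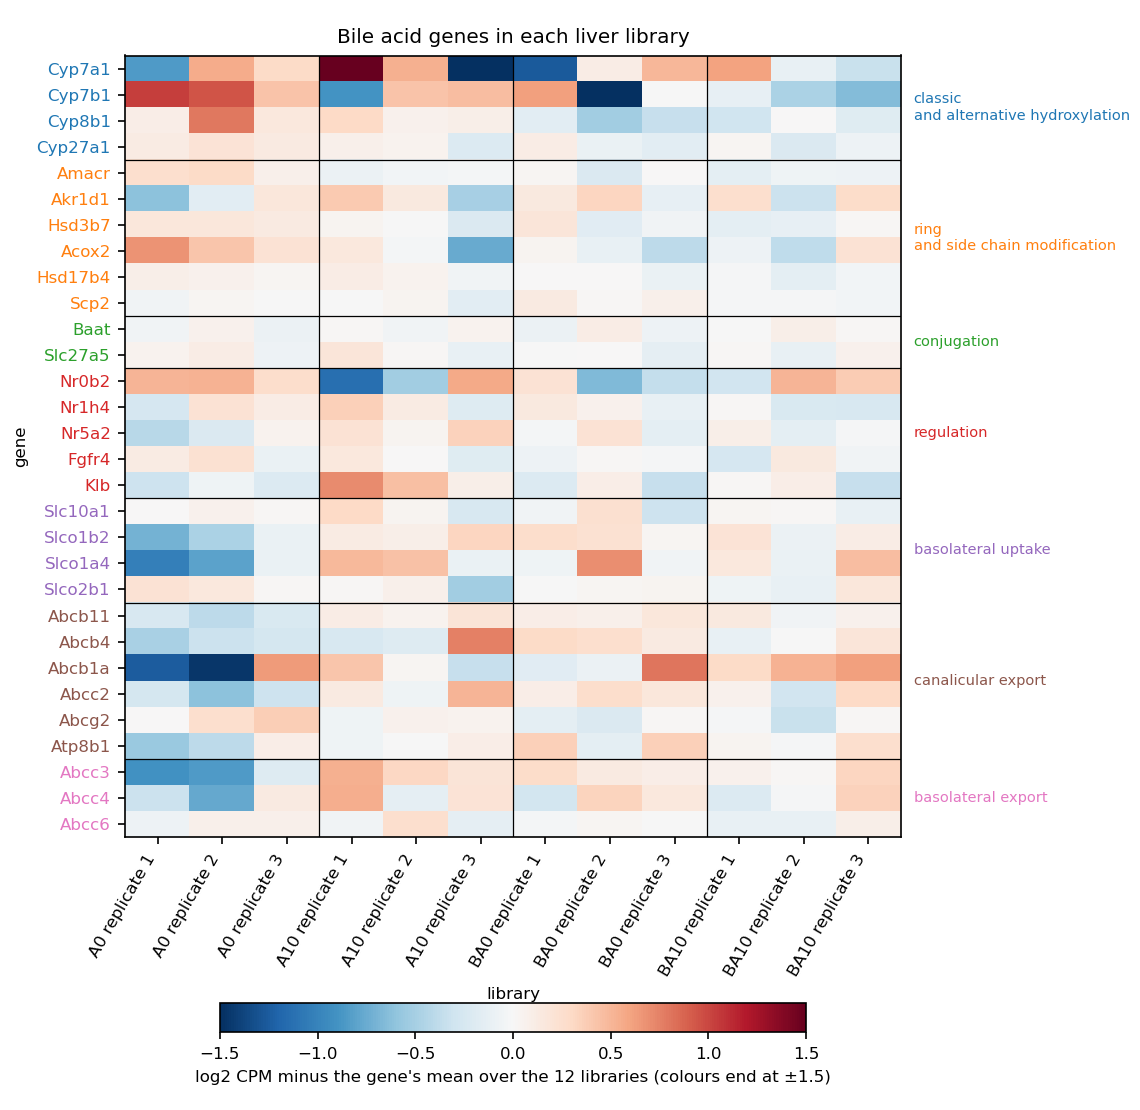
Log2 CPM of each of the 30 members tested (rows, by step) minus the gene's mean over the 12 libraries (columns), with colours ending at 1.5 on either side. Cyp7a1, Cyp7b1 and Nr0b2 differ between libraries of a group, and Slco1b2, Slco1a4 and Abcc3 are lowest in A0 replicates 1 and 2.

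Against A0, the livers of busulfan mice (BA0) had higher transcripts of 3 transporters and lower transcripts of the cholic acid enzyme Cyp8b1. The transporters were Abcb11, Abcc3, which exports bile acid and bilirubin conjugates back to blood, and Slco1b2, which takes up organic anions. These 4 of the 30 members passed the test (3 higher, 1 lower), where 6.38% of all 12896 genes did. The median log2 fold change of the members was -0.02, against 0.03 over all genes tested. Over all genes 527 were higher and 296 lower, and with upper-quartile scaling 415 and 679.

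Cyp8b1 (gene 13124, chromosome 9, 121914356 to 121916305 of mm10) was at 333, 535 and 345 CPM in A0 and at 278, 215 and 243 CPM in BA0. The 2 groups did not overlap, and A0 replicate 2 was the highest of the 12 libraries. The log2 fold change was -0.72 ± 0.18 (SE, edgeR adjusted p = 0.0425), with a 95% interval of -1.11 to -0.33. In A10 it was at 380, 323 and 330 CPM and in BA10 at 252, 311 and 274 CPM. All 6 libraries without busulfan were above all 6 with it, the nearest being 323 CPM (A10 replicate 2) and 311 CPM (BA10 replicate 2). How many of all genes separate in this way was not counted. Over both AOS levels, busulfan against no busulfan gave -0.51 ± 0.12 (SE, edgeR adjusted p = 0.0503), which missed the threshold, and an adjusted p of 0.00264 from DESeq2.

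Cyp7a1 (gene 13122, chromosome 4, 6265612 to 6275633) was at 66.3, 176 and 146 CPM in A0, 438, 173 and 31.3 in A10, 49.7, 129 and 169 in BA0 and 181, 110 and 94.5 in BA10. Its highest and its lowest library, 14-fold apart, were both of A10. No group stood apart from another. The log2 fold change in BA0 against A0 was -0.16, with a 95% interval of -1.74 to 1.42, wide enough to hold a log2 fold change of 1 in either direction.

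Cyp7b1 (gene 13123, chromosome 3, 18071950 to 18243338), which hydroxylates oxysterols and has higher levels in male mouse livers, was at 700, 655 and 457 CPM in A0, 183, 458 and 467 in A10, 520, 98.9 and 338 in BA0 and 313, 245 and 217 in BA10. BA0 replicate 2 was the lowest of the 12 and BA0 replicate 1 lay within the A0 range. The log2 fold change in BA0 was -0.92 (SE 0.49, adjusted p = 0.238 from edgeR). In that same library, BA0 replicate 2, the summed CPM of the 14 female-biased genes was 294, and that of 5 pancreas markers 224, the highest of the 12. Their part in the Cyp7b1 value was not tested.

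Cyp27a1 (gene 104086, chromosome 1, 74713574 to 74737892), the mitochondrial enzyme that also starts side chain oxidation, was at 401, 422 and 404 CPM in A0, 388, 381 and 319 in A10, 398, 344 and 330 in BA0 and 376, 316 and 348 in BA10. Every A0 library was above the other 9, and the share of all genes for which this holds was not counted. The differences were small, with a log2 fold change of -0.20 in BA0 (SE 0.11, adjusted p = 0.266 from edgeR) and an interval of -0.44 to 0.05.

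Of the 6 genes of ring and side chain modification, none passed the edgeR test in any comparison. Acox2, the peroxisomal oxidase of the side chain, was at 197 to 271 CPM in A0 and 130 to 175 CPM in the BA0 libraries (log2 fold change -0.58 ± 0.23 SE, edgeR adjusted p = 0.123). Amacr, the racemase that prepares the side chain for it, was at 123 to 143 and 101 to 119 CPM (-0.27, SE 0.09, adjusted p = 0.0832). Neither overlapped between A0 and BA0, and DESeq2 called Amacr (adjusted p = 0.0249). Akr1d1 and Hsd3b7, which modify the steroid ring, had values of 0.29 and -0.16. Hsd17b4 and Scp2, genes of the next peroxisomal steps, had -0.10 and 0.09. The conjugation pair stayed close to 0. Baat, which joins the acid to its amino acid, was at 0.01 (95% interval -0.18 to 0.20), and Slc27a5, which activates it as a CoA ester, at -0.07 (-0.30 to 0.15).

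The regulators gave no call in edgeR. Nr1h4 (gene 20186, chromosome 10, 89454234 to 89533585) was at 70.9, 98.3 and 91 CPM in A0, 108, 92.3 and 74 in A10, 93.4, 88 and 78 in BA0 and 85.3, 72.1 and 71.8 in BA10, with full overlap of A0 and BA0 (log2 fold change -0.01, interval -0.34 to 0.33). Nr0b2 (gene 23957, chromosome 4, 133553376 to 133556536) was at 40.2, 40.4 and 33.9 CPM in A0, 12.9, 19.6 and 41.7 in A10, 32.7, 17.8 and 21.9 in BA0 and 23, 40 and 36.6 in BA10. BA0 lay below A0 without overlap, at a log2 fold change of -0.66 ± 0.37 (SE, edgeR adjusted p = 0.26). A10 replicate 1 had the lowest Nr0b2 and the highest Cyp7a1 of the 12 libraries, and A10 replicate 3 the highest Nr0b2 and the lowest Cyp7a1. Not all libraries followed this, as A0 replicate 2 had 40.4 CPM of Nr0b2 with 176 of Cyp7a1, and BA0 replicate 2 had 17.8 with 129. A relation of these 2 genes over the 12 libraries was not tested.

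Among the uptake carriers, Slco1b2 (gene 28253, chromosome 6, 141629518 to 141686646) was at 551, 648 and 846 CPM in A0 and at 1080, 1060 and 925 CPM in BA0. The groups did not overlap, and A0 replicate 3 was nearest to BA0. The log2 fold change was 0.58 ± 0.15 (SE, edgeR adjusted p = 0.0477), with an interval of 0.25 to 0.92. It was at 982, 961 and 1130 CPM in A10 and 1040, 848 and 977 CPM in BA10, above every A0 library. The share of all genes with A0 below every other library was not counted. Slco1a4, which shares sequence with its close relatives of the Slco1a family so that reads may be split between them, was at 9.43 to 18 CPM in A0 and 18.4 to 31.1 CPM in BA0 (0.82, SE 0.28, adjusted p = 0.0895, and 0.0437 from DESeq2). Slc10a1 (gene 20493, chromosome 12, 80953183 to 80968705), the main sodium-dependent carrier, was at 626, 653 and 633 CPM in A0, 765, 643 and 529 in A10, 602, 736 and 504 in BA0 and 636, 632 and 579 in BA10. The A0 libraries lay inside the range of BA0, and the log2 fold change was -0.05 (interval -0.39 to 0.28). Slco2b1, another organic anion carrier, was at 152 to 175 CPM in A0 and 150 to 155 CPM in BA0, with overlap and a log2 fold change of -0.11 (interval -0.43 to 0.20).

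At the canaliculus, Abcb11 (gene 27413, chromosome 2, 69238282 to 69342616) was at 336, 302 and 337 CPM in A0 and at 424, 417 and 444 CPM in BA0. All 3 A0 libraries were below the other 9, and the share of all genes that set A0 apart in this way was not counted. The log2 fold change was 0.40 ± 0.09 (SE, edgeR adjusted p = 0.0342), with an interval of 0.20 to 0.59. Abcc2, the pump for conjugated bilirubin, was at 133 to 170 CPM in A0 and 218 to 245 CPM in BA0 (0.57, SE 0.17, adjusted p = 0.0644), and Abcb4, the phospholipid transporter, at 124 to 144 and 190 to 212 CPM (0.58, SE 0.22, adjusted p = 0.118). Neither overlapped between these groups, and DESeq2 called Abcc2 (adjusted p = 0.0258). The flippase gene Atp8b1 had 0.47 (adjusted p = 0.11), Abcb1a 0.60 (adjusted p = 0.444, with its near copy Abcb1b a possible source of shared reads) and Abcg2 -0.33 (adjusted p = 0.105).

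At the basolateral membrane, Abcc3 (gene 76408, chromosome 11, 94343295 to 94392997) was at 115, 120 and 189 CPM in A0 and at 261, 237 and 232 CPM in BA0. A0 replicate 3 lay between the other A0 libraries and BA0. The log2 fold change was 0.78 ± 0.18 (SE, edgeR adjusted p = 0.0357), with an interval of 0.39 to 1.17. Abcc4 and Abcc6 had values of 0.36 and -0.03 with overlap of the groups.

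**Figure D2:**
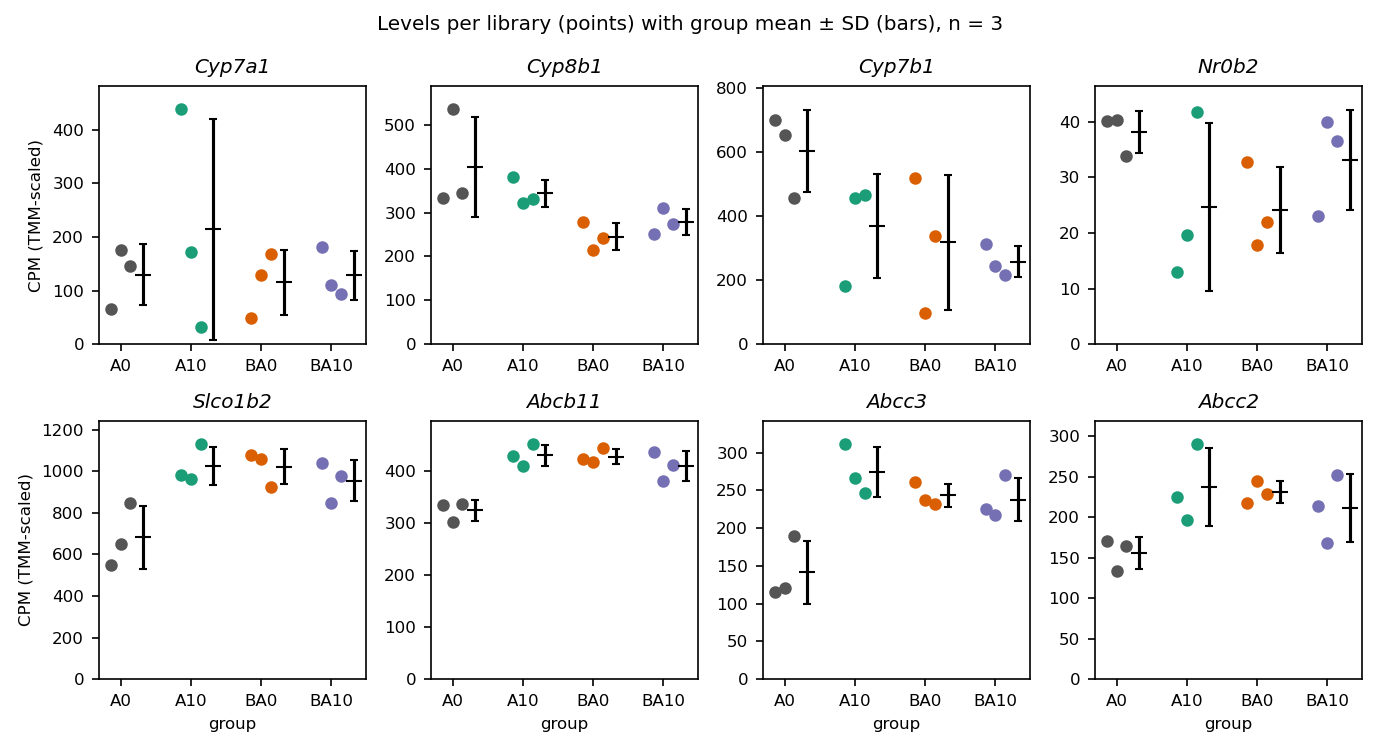
CPM of 8 members in each library (points, coloured by group) with the group mean ± SD (bars, n = 3), each axis starting at 0. Abcb11, Abcc2, Abcc3 and Slco1b2 are lower in A0 than in BA0 and A10, Cyp8b1 is lower in BA0 and BA10, and Cyp7a1 overlaps in all groups.

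Of the 30 members, 6 were higher and 6 lower in BA0 with no overlap between the groups, where 18.8% and 15.4% of all genes tested were, shares near those of the members. The higher were Slco1b2, Slco1a4, Abcb11, Abcb4, Abcc2 and Abcc3, and the lower were Cyp8b1, Cyp27a1, Amacr, Acox2, Hsd17b4 and Nr0b2.

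The calls against A0 were not stable to the processing or to the libraries used. After removal of the length and GC trends Abcb11 had 0.17 (adjusted p = 0.278), Abcc3 0.72 (0.0879), Cyp8b1 -0.57 (0.103) and Slco1b2 0.31 (0.198), and the 1 member called was Abcg2, an exporter of sulfated conjugates, at -0.75 (adjusted p = 0.014 from edgeR). Abcb11 and Abcc3, with transcripts of 5025 and 5005 bases, were at percentiles 77.2 and 77 of length among the genes tested. Slco1b2 and Cyp8b1 have 3307 and 1950 bases. GC content was 46.0% for Abcb11, 54.2% for Abcc3, 38.6% for Slco1b2 and 54.8% for Cyp8b1. The length and GC trends were not removed separately. None of the 30 members was called without A0 replicate 1 or 2, any BA0 replicate or BA10 replicate 1, 1 without BA10 replicate 2 or 3, 2 without A10 replicate 2, 3 without A10 replicate 1, 6 without A10 replicate 3 and 8 without A0 replicate 3. The calls over all genes moved as well. With every library they were 823, without A0 replicate 1 or 2 they were 4 each, and without A0 replicate 3 they were 1876. Without BA0 replicates 1, 2 and 3 in turn they were 339, 30 and 12. The direction of the 4 called genes was kept in each of these fits, with a log2 fold change of 0.33 to 0.42 for Abcb11, 0.63 to 1.05 for Abcc3, 0.43 to 0.77 for Slco1b2 and -0.86 to -0.48 for Cyp8b1. Without A0 replicates 1 and 2 together, a setting chosen after seeing the data in which the lone A0 library is assumed to vary like the others, Abcc3 had 0.33 (adjusted p = 0.576 from edgeR), Slco1b2 0.25 (0.641), Abcb11 0.32 (0.516) and Cyp8b1 -0.52 (0.48).

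In BA10 against BA0, which compares AOS with ddH2O after busulfan, no member was called. Of the 30 members, 0 were called by edgeR, 0 passed an unadjusted p under 0.05, and DESeq2 and limma each called 0. Of all 12896 genes tested, edgeR called 7 (0.0543%), and 573 passed an unadjusted p under 0.05. The median log2 fold change was -0.04 and the range of single genes was -0.30 for Cyp7b1 to 0.46 for Nr0b2. Among the genes called against A0, Cyp8b1 was at 0.19 (95% interval -0.20 to 0.57), Abcb11 at -0.06 (-0.26 to 0.13), Abcc3 at -0.03 (-0.42 to 0.36) and Slco1b2 at -0.10 (-0.43 to 0.24). A change of Abcb11 by more than 0.26 on the log2 scale thus lay outside its interval. The interval was wide for Cyp7a1 (-1.44 to 1.73) and for Nr0b2 (-0.35 to 1.27), and that of Cyp7a1 holds a log2 fold change of 1 in either direction. Between these groups 0 members were higher and 1 lower without overlap (Scp2, at -0.10), where 5.53% and 5.28% of all genes were.

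AOS without busulfan (A10 against A0) was accompanied by higher Abcc3 and Abcb11. Of the 30 members these 2 were called, where 3.64% of all genes tested were. Abcc3 was at 311, 267 and 246 CPM in A10 against 115, 120 and 189 in A0, a log2 fold change of 0.96 ± 0.18 (SE, edgeR adjusted p = 0.0401, interval 0.57 to 1.35). Abcb11 was at 429, 411 and 452 CPM against 336, 302 and 337, a log2 fold change of 0.41 ± 0.09 (SE, edgeR adjusted p = 0.0432, interval 0.21 to 0.60). The A0 and A10 libraries did not overlap for either gene. Slco1b2 (0.59, adjusted p = 0.0569), Abcc2 (0.60, adjusted p = 0.0675), Klb, the co-receptor of Fgfr4 (0.63, adjusted p = 0.067), and Abcb4 (0.54, adjusted p = 0.162) did not overlap either and missed the threshold in edgeR. Abcb4 was at 147, 151 and 293 CPM in A10 against 124, 139 and 144 in A0, so its value rests mostly on A10 replicate 3. DESeq2 called 7 members, which were Abcc3, Abcb11, Slco1b2, Abcc2, Slco1a4, Klb and Amacr. Cyp8b1 had -0.23 (interval -0.62 to 0.16) and Cyp7a1 0.73 (interval -0.86 to 2.31). Without overlap 6 members were higher and 4 lower, where 14.2% and 11.7% of all genes were. The 4 lower were Cyp27a1, Amacr, Hsd3b7 and Acox2, at -0.17, -0.26, -0.22 and -0.60.

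Both comparisons use the same 3 A0 libraries, so a like value for a gene in them is not a repeat. After removal of the trends none of the 30 was called in A10 by edgeR, with Abcc3 at 0.95 and Abcb11 at 0.21. Without A0 replicates 1 and 2 together Abcc3 had 0.52 and Abcb11 0.33 (adjusted p = 0.743 from edgeR for each). The count was 7 without A0 replicate 3 and 0 without any 1 of the other 11 libraries. Over all genes it was 469 with every library, 1675 without A0 replicate 3 and 1 to 8 without any 1 of the other 11. Over the 12 omissions of 1 library the adjusted p ran from 0.00813 to 0.157 for Abcc3 and from 0.0216 to 0.172 for Abcb11.

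**Figure D3:**
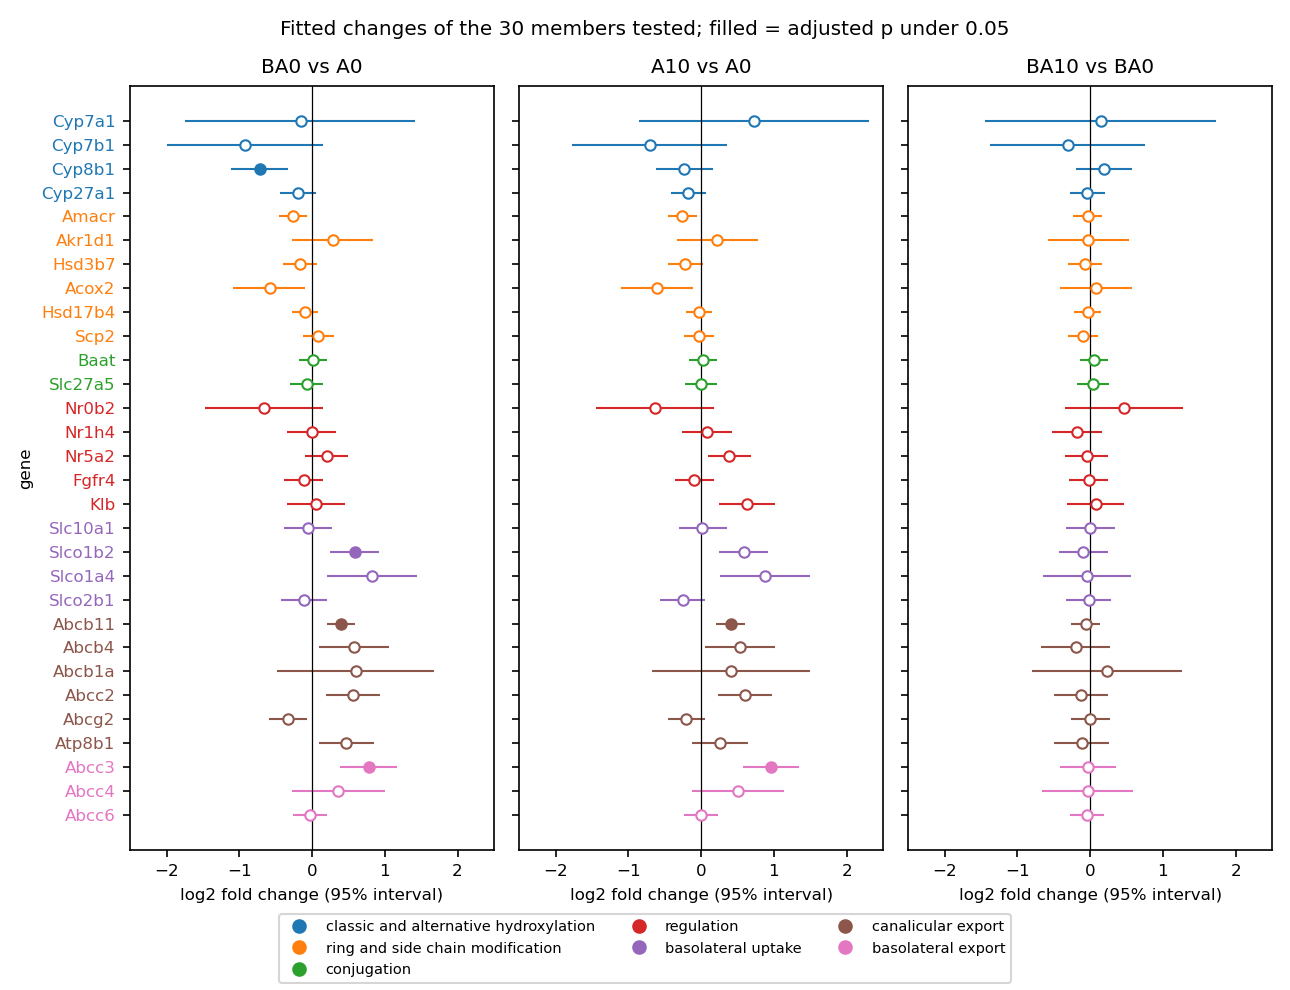
Log2 fold change of each of the 30 members tested, coloured by step, with its 95% interval, in BA0 against A0, A10 against A0 and BA10 against BA0 (filled points, adjusted p under 0.05 from edgeR). There are 4 filled points in the first panel, 2 in the second and none in the third.

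**Figure D4:**
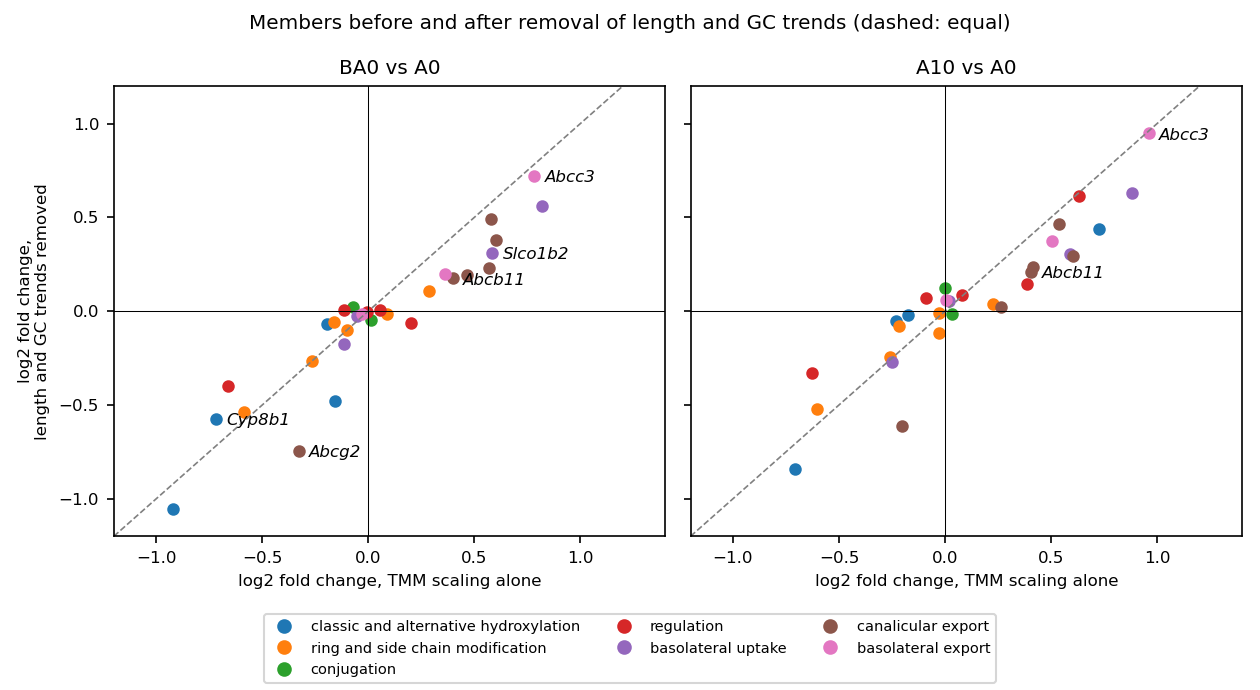
Log2 fold change of the members with TMM scaling alone (x axis) and after removal of the length and GC trends of each library (y axis), for BA0 and A10 against A0, with the line of equal values dashed. Abcb11 moves from 0.40 to 0.17 and Abcg2 from -0.33 to -0.75 in BA0, while Abcc3 moves from 0.78 to 0.72 in BA0 and from 0.96 to 0.95 in A10.

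The comparisons that pool or cross the treatments gave no member past the threshold in edgeR. BA10 against A10, which compares busulfan in mice that all received AOS, called 0 of 30 (1 at an unadjusted p under 0.05, DESeq2 0 and limma 0), where 0.124% of all genes were called. The 1 gene was Klb at -0.50 (SE 0.18, adjusted p = 0.395). Cyp8b1 had -0.30 (interval -0.69 to 0.08) and was the 1 member that did not overlap, all BA10 libraries being lower. Of all genes tested, 6.64% were higher and 6.84% lower without overlap. Busulfan pooled over AOS called 0 by edgeR (7 at an unadjusted p under 0.05, DESeq2 1 and limma 0) against 3.27% of all genes, and removal of the trends gave 1, Abcg2 at -0.43 (adjusted p = 0.0102). AOS pooled over busulfan called 0 (5 at an unadjusted p under 0.05, DESeq2 1, Abcc3, and limma 0) against 0.0465% of all genes. Whether the AOS effect differs with busulfan was tested as an interaction, which called 0 (8 at an unadjusted p under 0.05, DESeq2 2, Abcc3 and Abcb11, and limma 0) against 0.0543% of all genes. For Abcc3 that difference was -0.99 ± 0.25 (SE, edgeR adjusted p = 0.182), and for Abcb11 -0.47 (SE 0.13, adjusted p = 0.183). Of all 12896 genes, 1125 had an unadjusted p under 0.05 from edgeR in BA10 against A10 and 2895 for busulfan pooled over AOS. The like counts were 2013 for AOS pooled over busulfan and 2002 for the interaction.

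Beyond the members, 53 of 60 further genes of bile acid sensing, oxysterol metabolism, biliary lipid export and transporter anchoring had enough counts. In BA0 against A0, 1 was higher and 2 lower, and in A10 against A0, 3 were higher and 1 lower, where 6.38% and 3.64% of all genes tested were called, and the medians were 0.07 and 0.15. The BA0 count, 3 of 53, is no larger a share than that of all genes. Slc9a3r1, a scaffold protein that holds transporters at the apical membrane, was at 133, 114 and 110 CPM in A0, 79.6, 75.2 and 75.7 in BA0, 75.6, 94.7 and 76 in A10 and 89.1, 89.1 and 82.5 in BA10. All A0 libraries were above the other 9, and the share of all genes for which this holds was not counted. Slc9a3r1 fell in BA0 (log2 fold change -0.63 ± 0.11 SE, edgeR adjusted p = 0.019) and in A10 (-0.54, SE 0.11, adjusted p = 0.0404). Slc10a5, a carrier of the family of Slc10a1, was at 30.3 to 44.9 CPM in A0 and rose in BA0 (0.72, adjusted p = 0.0253) and A10 (0.62, adjusted p = 0.0448). Rdx, which encodes radixin, the linker of canalicular membrane proteins to actin, rose in A10 (0.46, adjusted p = 0.0419) and was at 0.35 (adjusted p = 0.0551) in BA0. Ppara, the fatty acid receptor, rose in A10 (0.57, adjusted p = 0.0475). After removal of the trends none of these 4 was called against A0 (adjusted p of 0.0536 to 0.39). In BA0 the calls of Slc9a3r1 and Slc10a5 were lost on omission of A0 replicate 1, A0 replicate 2, BA0 replicate 2 or BA0 replicate 3, with adjusted p up to 0.0781 and 0.117. In A10 those of Slc9a3r1, Slc10a5 and Rdx held without A0 replicate 3 and were lost without any 1 of the other 11 libraries, with adjusted p up to 0.157, 0.168 and 0.157. That of Ppara was lost in each of the 12 omissions (adjusted p of 0.0509 to 0.169).

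Foxa2, a liver transcription factor that regulates bile acid transporters, was at 40.5, 27.9 and 29.4 CPM in A0, 27, 31.6 and 16.8 in A10, 16.1, 19.6 and 10.6 in BA0 and 9.79, 16.2 and 13.9 in BA10. All but 1 of the libraries without busulfan were above all 6 with it, the exception being A10 replicate 3. The like share of all genes was not counted. Foxa2 fell in BA0 against A0 (log2 fold change -1.08 ± 0.28 SE, edgeR adjusted p = 0.047) and over both AOS levels (-0.998, SE 0.20, adjusted p = 0.0254). With the trends removed, the first was -0.91 (adjusted p = 0.103) and the second -0.93 (adjusted p = 0.0286). The first call held without A0 replicate 3 or A10 replicate 3 and was lost without any other library (adjusted p up to 0.145), and the second was lost without A0 replicate 1 or 2, A10 replicate 1 or 2, BA0 replicate 3 or BA10 replicate 1 or 3 (up to 0.0706). S1pr2, a receptor that conjugated bile acids activate, was at 5.22 to 5.42 CPM in A0 and 2.9 to 4.49 in BA0 and had -0.55 over both AOS levels (adjusted p = 0.0514, or 0.0323 with the trends removed). Slco1a1, an organic anion carrier of male mouse livers, was at 539, 608 and 814 CPM in A0, 949, 661 and 1010 in BA0, 969, 895 and 917 in A10 and 1100, 839 and 854 in BA10. In BA0 it had 0.42 (adjusted p = 0.169) with overlap of the groups.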

How the data were processed

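Poly(A) RNA of mouse liver was sequenced in 12 libraries. The authors aligned the reads with SOAPaligner to reference genes (build mm10 per the labels) and deposited for each library an estimated count and an RPKM value per gene. No source used here names the gene annotation, the handling of strand or what left decimals in some counts. Between 78.6% and 80.3% of a library's counts were whole (within 1e-06), and counts were rounded. RPKM served for levels between genes only. The 8 columns of the authors' group means were not used.

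After filterByExpr (minimum 10 counts in enough libraries and 15 in total), genes were fitted by edgeR 4.0.16 in R 4.3.3, with TMM factors, 12 libraries, 4 group means and no covariate. Pooled contrasts average 2 simple ones, and the interaction is their difference. Intervals (95%) come from the moderated t distribution. Alternatives used DESeq2 1.42.0, limma 3.58.1, other scalings and filters, a replicate block, offsets that remove spline trends (4 degrees of freedom) over length and GC content for 12219 genes, single libraries left out, the compared groups alone, and the study's random sampling model (MARS, FDR 0.001, log2 ratio 1) on summed reads. Leaving out A0 replicates 1 and 2 together was chosen after seeing the data. Coordinates, lengths and GC came from GENCODE M21.

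The members, their steps and all lists were chosen with earlier results of these data known. All members are named, with values per library for those called in a comparison and for 8 central genes. Of the further bile acid genes the 6 with the smallest p and Slco1a1 are named. No source says more of the replicates than that they were separate samples, so p-values measure the spread between these samples. The fits were also run on simulated counts for BA0 against A0. Without a length trend, false calls were 6 from edgeR, 19 from DESeq2 and 8 from limma. When a length trend was put on simulated A0 replicates 1 and 2, edgeR made 123 false calls as is and 8 once the trends were removed. In these 2 runs edgeR found 70 and 66 of the 100 genes whose true log2 difference was 1. The removal fitted the same gene lengths that set the simulated trend, and no GC trend was simulated. These runs thus cannot show how well the removal works on the real libraries.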

Additional observations from a re-analysis of the deposited data

How the results depend on the processing

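The counts of members called were unstable against A0 and stayed at 0 in BA10 against BA0 and in BA10 against A10 under every alternative run. In BA0 against A0 (4 called), DESeq2 called 7, a fit with no count filter 2, removal of the trends 1, and 0 were called with the compared groups alone, by the random sampling model and without A0 replicates 1 and 2 together, where the lone A0 library is assumed to vary like the others. Leaving out single libraries gave 0 to 8. In A10 against A0 (2 called), upper-quartile factors gave 1, DESeq2 7, no count filter 0, removal of the trends 0, the compared groups alone 0 and leaving out both A0 libraries 0, and single libraries left out gave 0 to 7. For busulfan pooled over AOS (0 called), upper-quartile factors, RLE factors, DESeq2 and a mean of at least 1 CPM each called 1 (Cyp8b1), removal of the trends called 1 (Abcg2) and single libraries left out 0 to 3. For AOS pooled over busulfan DESeq2 called 1. For the interaction DESeq2 called 2, and 2 were called without A0 replicate 3 (range 0 to 2). No called gene changed direction, and the cause was not tested beyond these settings.

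Across all genes, 823 were called in BA0 against A0, with 1608 by DESeq2, 103 after removal of the trends, 96 with the compared groups alone and 433 with no count filter. In A10 against A0, 469 were called, and 1316, 2, 2 and 20 under these settings. With single libraries left out, calls over all genes ran from 4 to 1876 in BA0 against A0 and from 1 to 1675 in A10 against A0. They ran from 90 to 1089 for busulfan pooled over AOS and from 5 to 245 for the interaction. Summed reads scaled by total counts alone, without TMM factors, gave a median log2 fold change of 0.21 over 15821 genes in BA0. In A10 it was 0.20 over 15744 genes. Pairing of the samples by replicate number was not evident (correlations of same-numbered deviations -0.07 to 0.14, 3 of 18 over 0.1, and 5 of 12 libraries closest to their own number). From 3 libraries a group these values cannot exclude it. With the replicate block 3 members were called in BA0 against A0 and 4 in A10 against A0.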
